A study of Mus musculus with 6 samples.

Results

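The nuclear genes for the subunits of mitochondrial complexes I to V and for cytochrome c were taken from an RNA-seq table of juvenile mouse testis. Members were the protein-coding genes whose GENCODE symbol begins with Ndufa, Ndufb, Ndufc, Ndufs or Ndufv and a digit, with Uqcr, with Atp5 or with Cox4 to Cox8, or is Sdha, Sdhb, Sdhc, Sdhd, Cyc1, Cycs or Cyct. The rule gave 87 of 49671 gene rows, namely 37 of complex I, 4 of complex II, 9 of complex III, 2 for cytochrome c, 18 of complex IV and 17 of complex V. It uses names alone, so Ndufa4, which is now assigned to complex IV, is counted with complex I, as is its relative Ndufa4l2. It also leaves out Ndufab1, a complex I subunit, and counts Atp5s, named Dmac2l in RefSeq, with complex V. Whole testes of C57BL/6J mice, 12 days post-partum, gave the libraries, 3 wild type (Ankrd31+/+) and 3 homozygous for loss of Ankrd31 (Ankrd31-/-), and the labels name no other allele or agent. Values across libraries are given in the order of replicates 1, 2 and 3. The labels number replicates without saying whether each was 1 animal, so p-values measure the spread between these libraries, which may be technical. The labels do not describe the deleted stretch or say whether it acts in some cells alone.

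The respiratory chain passes electrons from NADH through complex I, or from succinate through complex II, to complex III, from there by cytochrome c to complex IV and on to oxygen, and complex V uses the proton gradient so built to make ATP. Most subunits are encoded in the nucleus and a few in mitochondrial DNA, so that complexes I, III, IV and V are built from both sets of genes. In male germ cells some subunits have a second form, encoded by a separate gene and best known from spermatocytes and spermatids. Cyct encodes testis cytochrome c beside Cycs, Cox6b2 stands beside Cox6b1 and Cox7b2 beside Cox7b. At 12 days the seminiferous tubules hold Sertoli cells, spermatogonia and the first spermatocytes.

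Each library held 21014060 to 22706296 counts assigned to genes, and the members took 0.71% to 0.784% of them. Ankrd31, the targeted gene, lay at 84.9, 52.3 and 63.3 CPM (counts per 1000000 of the effective library size) in wild-type replicates 1, 2 and 3 and at 40.8, 33.2 and 38.0 CPM in knockout replicates 1, 2 and 3. Exons outside the deleted part can still be counted, so this checks the labels only in part. Markers of the testis were present, with Sertoli markers summing to 2125 to 2676 CPM and genes of early meiotic prophase to 1228 to 2153 CPM. The 10 pachytene markers set the libraries of replicate 1 apart. They summed to 353 CPM in wild-type replicate 1 and 266 CPM in knockout replicate 1, against 174 to 203 CPM in the other libraries. Knockout replicate 2 stood apart by its 8 Leydig markers, at 782 CPM against 261 to 401 CPM elsewhere. Of these Leydig markers, Hsd3b1 and Hsd17b3 were highest in wild-type libraries instead. Wild-type replicate 3 stood apart by its 10 epididymis and rete markers, at 93.4 CPM against 3.51 to 12.6 CPM elsewhere. Of these markers 5 passed the filter on low counts used before testing. Crisp1, Adam7, Spink8, Defb20 and Lcn8 did not pass, and the epididymal gene Lcn8 was at or near 0 in every library.

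The chain was strongly expressed in both genotypes, and its subunits spanned a wide range of levels. Levels between genes were compared as the mean CPM per kilobase of exon over the 6 libraries. The median member stood at 43.4, against 7.23 for the 14698 tested protein-coding genes, and 77 of 87 members lay above that second value. By complex, the median level per kilobase was 43.4 for complex I, 61.4 for complex II, 64.9 for complex III, 23.6 for complex IV and 45.7 for complex V. In the order of these medians complexes II and III stood at the top and complex IV, with its tissue forms, at the bottom.

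The highest gene of each complex differed in role. Atp5a1 and Atp5b, the alpha and beta subunits of the ATP synthase head, stood at 205 and 204 CPM per kilobase, next to the small subunit gene Atp5mpl at 216, the highest of complex V. Cyc1, which encodes cytochrome c1, led complex III at 118. Cox4i1, the general form of subunit 4, led complex IV at 187, and Ndufb9, an accessory subunit, led complex I at 187. Sdhd, a membrane anchor, led complex II at 82.7, close to Sdha, the flavoprotein that oxidises succinate, at 81.4. The iron-sulfur subunit gene Sdhb stood at 41.5 and the anchor gene Sdhc at 37.3, so that complex II had the narrowest range of the 5 complexes. The lowest gene of complex III was Uqcrq, a small subunit, at 30.0. The lowest gene counted with complex I was Ndufa4l2, a relative of Ndufa4 known from hypoxia, at 2.30, next to Ndufb2 at 2.46.

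Several of the low values belong to genes whose counts are uncertain. Atp5l, a membrane subunit of complex V, stood at 0.461 CPM per kilobase over a summed exon length of 6443 bases, and 4 annotated pseudogenes match at least 100 bases of its transcript at 97% identity or more. Atp5g2, one of 3 genes for the c-ring subunit, stood at 1.02 with 1 such pseudogene, while Atp5g1 stood at 3.13 and Atp5g3 at 76.3. Cox7c, a small subunit of complex IV, stood at 7.53 with 2 such pseudogenes. In all, 15 of 87 members had a pseudogene match, and how reads with several matches were counted is not given in the sources used here. Summed exon length covers every annotated isoform and lowers the level per kilobase of a gene with one long isoform.

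Forms of complex IV known from other tissues were low. Cox8b, a heart and muscle form, had 1 count in wild-type replicate 3 and 0 in the other libraries, where 3 counts would be 0.132 to 0.137 CPM. Cox6a2, also a heart and muscle form, had 3, 3 and 3 counts in the wild-type and 4, 2 and 5 counts in the knockout replicates. Neither passed the filter on low counts, which left 85 of 87 members to be tested. Cox4i2, a lung form, lay at 1.68, 1.45 and 1.33 CPM across wild-type libraries, against 1.41, 1.51 and 1.04 CPM across Ankrd31-/- libraries. Cox7a1, the muscle form of subunit 7a, was higher, at 10.7, 8.05 and 8.71 CPM against 12.3, 9.20 and 8.38 CPM. The general forms beside them stood far above, with Cox6a1 at 155, Cox8a at 124 and Cox7a2 at 92.6 CPM per kilobase, where Cox7a1 stood at 17.9 and Cox4i2 at 1.78.

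**Figure D1:**
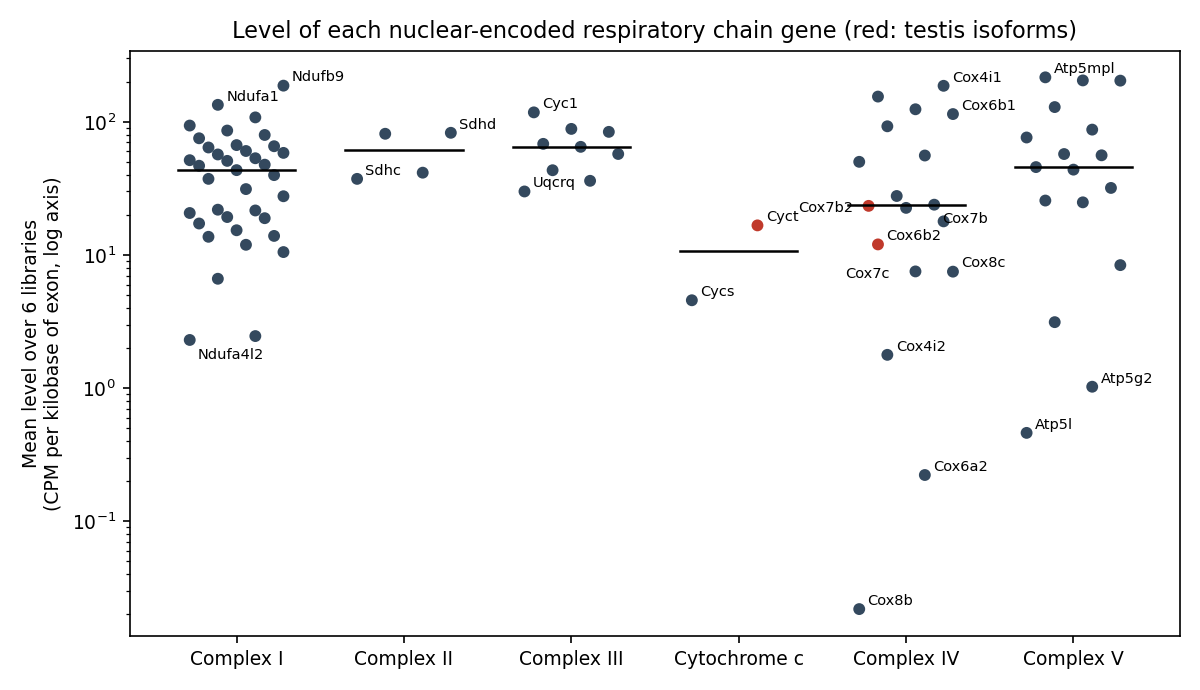
Mean level of each of the 87 genes over 6 libraries, in CPM per kilobase of exon on a log axis, by complex; bars mark medians and red points the 3 testis isoforms. Most genes lie between 10.5 and 216, with Cox8b, Cox6a2, Atp5l and Atp5g2 at the bottom.

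No nuclear-encoded subunit was detectably different between Ankrd31-/- and wild-type testes. Of the 85 tested members, 0 passed edgeR's quasi-likelihood test after Benjamini-Hochberg adjustment over 18040 genes, where 0.0% of all genes did, and 0 had an unadjusted p under 0.05, against 2.07% of all genes. DESeq2 called 0 of 85 members (0.0111% of all genes) and limma voom 0 of 85 (0.0%), and at an unadjusted p under 0.05 both again gave 0 members, where 1.34% of all genes in DESeq2 and 2.12% in voom passed. With each knockout library set against the wild-type library of the same number, edgeR again called 0 members, against 0.0443% of all genes. Ankrd31 itself, at -0.84 ± 0.17 without the block (SE, edgeR unadjusted p = 0.00154), passed in this blocked fit (edgeR adjusted p = 0.00505). It also passed in DESeq2 (adjusted p = 0.00163). Neither edgeR without the block nor voom called Ankrd31, so 0 calls there do not show that a gene was unchanged. In that blocked fit 4 members had an unadjusted p under 0.05 (7.48% of all genes), namely Ndufa1 on the higher side (3.59% of all genes) and Cox6b2, Ndufa7 and Ndufb7 on the lower (3.89%).

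Most of these differences had narrow intervals. For 57 of 85 members the 95% interval of the knockout to wild-type fold change lay inside 1.2 fold in either direction, against 36.4% of all genes, and for 79 it lay inside 1.5 fold, against 72.1% of all genes. With the block the counts were 67 inside 1.2 fold (48.5% of all genes) and 80 inside 1.5 fold (76.1%). The 6 members with wider intervals were Cox6b2, Cox8c, Cox4i2, Atp5l, Atp5g2 and Ndufa4l2. The median SE of the log2 fold change was 0.0779 for members and 0.113 for all tested genes, and the median SD between replicates on the log2 scale was 0.091 and 0.14.

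More members lay below than above the wild type, by small amounts that did not hold in every pair. The log2 fold change was below 0 in 58 of 85 members, where 52.2% of all genes lay below 0, and its median was -0.029 against -0.005 over all tested genes. By complex the medians were -0.039 for complex I, -0.007 for complex II, -0.017 for complex III, -0.042 for complex IV and -0.007 for complex V, with 28 of 37, 2 of 4, 6 of 9, 13 of 16 and 9 of 17 tested members lower. The medians of the same-number pairs were 0.007, -0.029 and -0.030 for pairs 1, 2 and 3, and the median of all members was above 0 when wild-type replicate 2 (0.010) or knockout replicate 3 (0.008) was left out. Groups did not overlap for Ndufb10, higher in the knockout, and Ndufa7, lower in it, where 3.08% and 3.5% of all genes did so. In 3 of 3 pairs 8 members were higher (13.9% of all genes) and 17 were lower (14.6% of all genes).

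The summed level of the members was lowest in replicate 3 of both genotypes. It was 7673, 7830 and 7327 CPM across wild-type libraries, against 7761, 7730 and 7166 CPM across Ankrd31-/- libraries. Summed Sertoli markers were also lowest in replicate 3, at 2333, 2676 and 2157 CPM across wild-type libraries, against 2331, 2512 and 2125 CPM across Ankrd31-/- libraries. Of the 9 markers, Inha, Amh, Dhh and Cldn11 were lowest in replicate 3 of both genotypes. Sox9, Wt1, Gata4, Fshr and Rhox5 were not, and in the wild type Sox9, Wt1 and Gata4 were lowest in replicate 1. The part of Sertoli cells in the level of the chain was not tested. In whole testis, fewer cells of a type and less RNA per cell cannot be told apart.

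**Figure D2:**
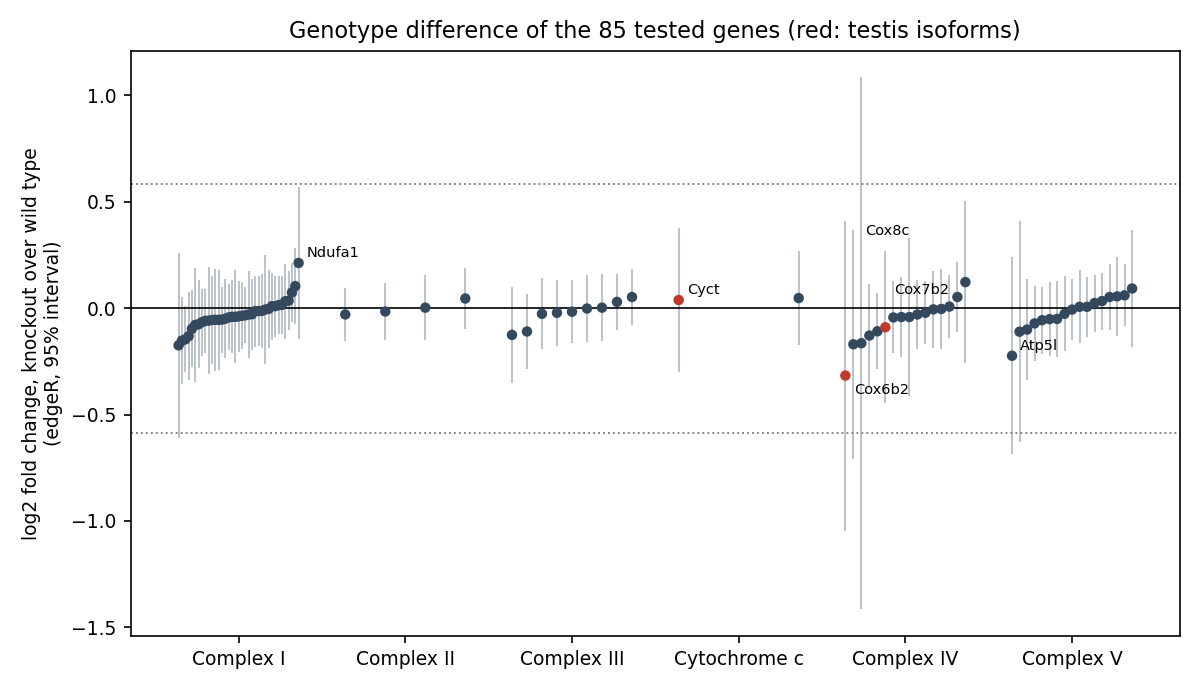
The log2 fold change of each of the 85 tested genes, knockout over wild type, with its 95% interval from edgeR without the block; dotted lines mark 1.5 fold and red points the testis isoforms. All intervals cross 0, and those of Cox6b2 and Cox8c are the widest of the plot.

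Complex I takes electrons from NADH through a small set of core subunits, surrounded by accessory ones. The 7 nuclear core subunits had log2 fold changes from -0.066 to 0.035 with a median of -0.014. The 30 other members counted with complex I ranged from -0.175 to 0.212 with a median of -0.041. They include Ndufa4 and Ndufa4l2, counted here by name, and the value of -0.175 is that of Ndufa4l2. Ndufa1, an accessory subunit needed for assembly of the membrane arm and encoded on the X chromosome (mm10, X, 37187588 to 37191163, minus strand), was the most shifted gene on the higher side. It lay at 63.1, 48.1 and 45.1 CPM across wild-type libraries, against 72.2, 55.5 and 53.3 CPM across Ankrd31-/- libraries. Each knockout library was above the wild-type library of the same number, yet the groups overlapped, since wild-type replicate 1 exceeded knockout replicates 2 and 3. The log2 fold change was 0.21 ± 0.16 (SE, edgeR adjusted p = 1.0), with an interval of 0.904 to 1.48 fold, and with the block 0.21 ± 0.05 (edgeR unadjusted p = 0.00123, adjusted p = 0.288). Without knockout replicate 1 the log2 fold change was 0.063, and without wild-type replicate 1 it was 0.373. The other X-linked members had log2 fold changes of 0.03 ± 0.08 for the accessory subunit gene Ndufb11 and -0.13 ± 0.11 for Cox7b.

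Ndufa7, another accessory subunit gene of complex I, had the smallest unadjusted p of the members without the block. It lay at 65.5, 71.5 and 63.1 CPM across wild-type libraries, against 61.9, 59.3 and 59.5 CPM across Ankrd31-/- libraries, so the knockout libraries were all lower by a small margin. Its log2 fold change was -0.15 ± 0.07 (SE, edgeR unadjusted p = 0.0602, adjusted p = 1.0). Ndufb10, an accessory subunit with the opposite order, lay at 54.3, 56.6 and 55.7 CPM against 57.9, 60.2 and 57.2 CPM, and was singled out after its values were seen. Ndufs6, which carries a zinc-binding fold next to the core, had -0.15 ± 0.09, and Ndufb7, an accessory subunit, had -0.13 ± 0.09. Leaving out 1 library, Ndufs6 ranged from -0.21 to -0.07 (without wild-type replicate 2) and Ndufb7 from -0.215 (without knockout replicate 1) to -0.057 (without knockout replicate 3).

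In complexes II, III and V no member passed. Sdha lay at 313.5, 325.8 and 318.1 CPM across wild-type libraries, against 313, 319.2 and 305.8 CPM across Ankrd31-/- libraries, a log2 fold change of -0.03 ± 0.06. The other complex II genes had 0.05 ± 0.07 for Sdhb, 0.002 ± 0.068 for Sdhc and -0.02 ± 0.06 for Sdhd, and all 4 intervals lay inside 1.2 fold. In complex III, Uqcrq had -0.13 ± 0.10, Uqcr11, a small subunit, -0.11 ± 0.08, and the core protein gene Uqcrc2 0.05 ± 0.06. In complex V, Atp5l had -0.22 ± 0.21 at 2.25 to 3.96 CPM. The c-ring gene Atp5g1 had -0.10 ± 0.11 and the delta subunit gene Atp5d -0.07 ± 0.08, and none of these passed in edgeR. Atp5l was -0.04 when wild-type replicate 2 was left out and -0.098 when knockout replicate 3 was, and Atp5g1 was -0.162 without knockout replicate 2 and -0.014 without knockout replicate 3.

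Testis isoforms were expressed at 12 days in every library, at levels that ranged from a small share of the general form to several times above it. Cox6b2 (mm10, chromosome 7, 4751792 to 4753094, minus strand) stood at 13.3 ± 5.28 CPM per kilobase in the wild type and 10.7 ± 2.71 in the knockout (SD, n = 3 each). Its general partner Cox6b1 (chromosome 7, 30616861 to 30626151, minus strand) stood at 115 ± 6.66 in the wild type. Cox7b2 (chromosome 5, 71442824 to 71548205, minus strand), at 24.1 ± 5.65 in the wild type, lay within the spread between replicates of the X-linked Cox7b (106015700 to 106022450, plus strand) at 24.9 ± 2.61. Cyct (chromosome 2, 76353942 to 76360450, minus strand) stood at 16.5 ± 3.21 in the wild type, above Cycs (chromosome 6, 50562563 to 50566538, minus strand) at 4.50 ± 0.293. That last order rests on the summed exon lengths of 655 bases for Cyct and 3404 bases for Cycs, since by CPM Cycs was higher, at 15.3 ± 0.996 against 10.8 ± 2.10. Cycs also matches 14 other annotated genes, 2 of them pseudogenes, the most of any member, so its counts and the ratio of Cyct to Cycs are uncertain.

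The windows upstream of these 3 pairs of genes were searched for letters known from general respiratory genes. The 250 bases before each start site are shown 5′ to 3′ (RefSeq, GRCm38.p6, which is the mm10 assembly), together with those of Sdhb as a general subunit with a motif of nuclear respiratory factor 1. Capitals mark matches, on either strand, to GCATGCGC (nuclear respiratory factor 1, NRF1), CCGGAAG (the ETS factor GABPA), AAGATGGC (YY1), TGACGTCA (the cyclic AMP response element) and CCAAT (the CCAAT box). The windows are chr7:30626115-30626364 (minus strand) for Cox6b1, chr7:4753095-4753344 (minus) for Cox6b2, chrX:106015450-106015699 (plus) for Cox7b, chr5:71548206-71548455 (minus) for Cox7b2, chr6:50566570-50566819 (minus) for Cycs, chr2:76360454-76360703 (minus) for Cyct and chr4:140961021-140961270 (plus) for Sdhb.
Cox6b1: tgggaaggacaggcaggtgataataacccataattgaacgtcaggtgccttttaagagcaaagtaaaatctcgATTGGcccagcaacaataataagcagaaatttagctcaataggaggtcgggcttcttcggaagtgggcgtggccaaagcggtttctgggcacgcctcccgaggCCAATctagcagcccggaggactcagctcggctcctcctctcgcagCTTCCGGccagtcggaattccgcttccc
Cox6b2: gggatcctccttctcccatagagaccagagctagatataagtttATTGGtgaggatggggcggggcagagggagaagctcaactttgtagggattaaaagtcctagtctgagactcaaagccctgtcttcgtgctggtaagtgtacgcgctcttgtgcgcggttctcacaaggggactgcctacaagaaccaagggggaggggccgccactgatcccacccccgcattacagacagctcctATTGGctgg
Cox7b: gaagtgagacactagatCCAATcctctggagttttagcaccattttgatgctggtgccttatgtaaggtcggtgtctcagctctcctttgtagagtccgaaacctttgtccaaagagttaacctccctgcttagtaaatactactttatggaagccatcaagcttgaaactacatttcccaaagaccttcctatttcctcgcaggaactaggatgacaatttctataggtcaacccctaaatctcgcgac
Cox7b2: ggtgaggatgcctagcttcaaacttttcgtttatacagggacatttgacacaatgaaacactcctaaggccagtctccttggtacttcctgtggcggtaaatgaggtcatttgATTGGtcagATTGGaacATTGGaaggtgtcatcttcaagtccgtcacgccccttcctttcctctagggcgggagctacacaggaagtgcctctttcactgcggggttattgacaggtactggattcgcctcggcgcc
Cycs: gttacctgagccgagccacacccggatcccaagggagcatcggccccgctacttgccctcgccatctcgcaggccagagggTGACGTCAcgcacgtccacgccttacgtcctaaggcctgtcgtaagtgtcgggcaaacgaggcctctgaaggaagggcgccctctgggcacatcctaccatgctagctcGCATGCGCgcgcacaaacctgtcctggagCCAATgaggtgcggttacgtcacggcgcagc
Cyct: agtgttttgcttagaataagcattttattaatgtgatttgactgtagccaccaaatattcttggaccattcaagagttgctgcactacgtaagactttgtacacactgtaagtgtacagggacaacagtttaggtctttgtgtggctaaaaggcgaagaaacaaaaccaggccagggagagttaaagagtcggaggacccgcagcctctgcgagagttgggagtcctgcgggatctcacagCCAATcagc
Sdhb: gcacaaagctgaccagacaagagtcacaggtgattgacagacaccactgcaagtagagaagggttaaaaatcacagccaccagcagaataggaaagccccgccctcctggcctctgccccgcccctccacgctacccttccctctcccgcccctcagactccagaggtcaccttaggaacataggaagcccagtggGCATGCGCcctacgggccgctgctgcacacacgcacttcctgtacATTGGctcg

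The Cycs window holds the NRF1 letters 60 bases and the cyclic AMP response element 169 bases before the start, and Cox6b1 holds the ETS letters 28 bases before it. The windows of Cox6b2, Cox7b2 and Cyct, and that of Cox7b, hold none of the NRF1, ETS, YY1 or cyclic AMP letters, and each holds the CCAAT letters 1 to 3 times. A match is a description of the letters and not of binding. Cycs was also the richest in G and C, at 64.0% against 43.6% to 54.8% in the 5 other windows of the isoform pairs.

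Such letters were found in a larger share of the members than of all genes, given here as a description with no test. RefSeq windows of 300 bases, from 250 before to 50 after a start, were found for 70 of 87 members and for 17492 protein-coding genes. NRF1 letters occurred for 11 of 70 members (15.7%) and 3.94% of all genes, ETS letters for 16 (22.9%) and 12.9%, and YY1 letters for 10 (14.3%) and 3.57%. At least one of these motifs was found for 31 of 70 members (44.3%) and 18.7% of all genes. The members with NRF1 letters included the genes Cycs, Sdhb, Uqcrc1, Cox6a1, Ndufa8 and Atp5k, from complexes I to V and cytochrome c. The letters GGGCGG, known from SP1, were not more frequent, with 41.4% of members and 49.2% of all genes, nor were the TATA box letters TATAAA, with 7 of 70 members and 14.8% of all genes. The NRF1, ETS and SP1 letters hold CG, and those of YY1 and the TATA box do not. The median ratio of observed to expected CG was 0.795 in member windows and 0.567 in all windows. The part of CG content in these shares was not tested.

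Cox6b2, whose product replaces Cox6b1 in complex IV of germ cells, had the largest log2 fold change of the members in size, and it did not pass the test. It lay at 21.2, 13.3 and 9.75 CPM across wild-type libraries, against 15.3, 10.8 and 9.55 CPM across Ankrd31-/- libraries. Each knockout library was below the wild-type library of the same number, with log2 differences of -0.474, -0.308 and -0.03 in pairs 1, 2 and 3, and the groups overlapped. The log2 fold change was -0.32 ± 0.31 (SE, edgeR adjusted p = 1.0), with -0.29 ± 0.10 in the blocked fit (edgeR unadjusted p = 0.016, adjusted p = 0.565), and it was 0.04 without wild-type replicate 1. Cox6b1 lay at 80.4, 86.9 and 77.7 CPM against 80.8, 82.5 and 77.9 CPM, a log2 fold change of -0.02 ± 0.07.

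Cox7b2 and Cyct had pairs in both directions. Cox7b2 lay at 16.6, 10.9 and 11.8 CPM across wild-type libraries, against 13.0, 11.2 and 12.7 CPM across Ankrd31-/- libraries, with wild-type replicate 1 above all others and a log2 fold change of -0.09 ± 0.16 (edgeR adjusted p = 1.0). Cox7b lay at 26.7, 32.8 and 31.3 CPM against 27.2, 31.1 and 24.7 CPM. Cyct lay at 12.5, 11.5 and 8.43 CPM across wild-type libraries, against 11.8, 11.4 and 10.1 CPM across Ankrd31-/- libraries, with 0.04 ± 0.15 (edgeR adjusted p = 1.0). Cycs lay at 15.4, 16.2 and 14.3 CPM against 14.9, 17.0 and 15.5 CPM, with 0.05 ± 0.10.

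**Figure D3:**
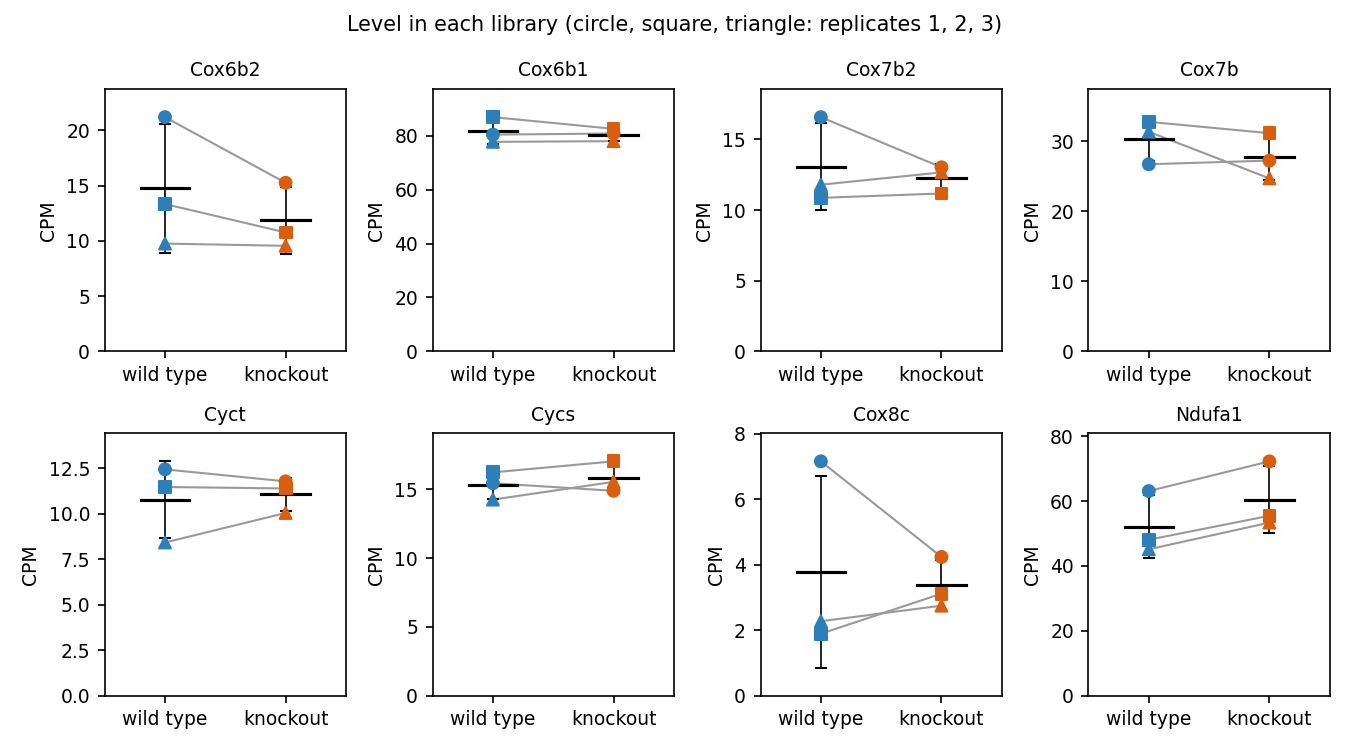
Levels in CPM of the testis isoforms, their general partners, Cox8c and Ndufa1 in each library, with lines joining libraries of the same replicate number, bars for means and whiskers for SD (n = 3). Wild-type replicate 1 is the highest library for Cox6b2, Cox7b2, Cyct and Cox8c, and every line of Ndufa1 rises.

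The ratio of testis to general form within a library, per kilobase, tested whether the 2 forms shifted apart with genotype. Cox6b2 stood at 16.9%, 9.82% and 8.04% of Cox6b1 in the wild-type and 12.1%, 8.35% and 7.85% in the knockout replicates. The log2 ratio was -3.18 ± 0.55 and -3.43 ± 0.34 (SD, n = 3 each), a difference of -0.25 (exact permutation test, two-sided, p = 0.6). By pair the differences were -0.481, -0.234 and -0.035, lower in 3 of 3 pairs (paired exact permutation p = 0.25, the smallest that 3 pairs can give). Cox7b2 stood at 139%, 74.4% and 84.4% of Cox7b in the wild-type and 107%, 80.5% and 115% in the knockout replicates, a log2 difference of 0.06 (exact permutation p = 0.9, paired exact p = 0.75). Cyct stood at 419%, 368% and 308% of Cycs against 412%, 348% and 336%, a difference of 0.007 (exact permutation p = 1.0, paired exact p = 1.0). Adjusted over the 3 ratios each unpaired p was 1.0, and 3 libraries against 3 cannot give an exact p below 0.1. In all 3 pairs of genes the libraries of the genotypes overlapped.

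Cox8c, a form of subunit 8 known from testis, varied most between libraries of all tested members. It lay at 7.15, 1.89 and 2.27 CPM across wild-type libraries, against 4.24, 3.11 and 2.75 CPM across Ankrd31-/- libraries. Replicate 1 of each genotype was the highest of its group. The SD between replicates was 0.765 on the log2 scale, next to 0.469 for Cox6b2, 0.243 for Cox7b2 and 0.227 for Cyct, where the median member had 0.091. Its log2 fold change was -0.17 ± 0.52 (edgeR adjusted p = 1.0), and without wild-type replicate 1 it was 0.69.

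Markers of pachytene spermatocytes and of early meiotic prophase put the libraries in 1 order, nearly that of Cox8c and Cox7b2. Cox6b2 and Cyct followed another order after the replicate 1 libraries. The 10 pachytene markers summed to 353, 174 and 191 CPM across wild-type libraries, against 266, 196 and 203 CPM across Ankrd31-/- libraries. Hspa2, Clgn, Ybx2 and Ldhc were highest in the replicate 1 libraries of both genotypes. Piwil1, a piRNA-binding gene of that stage, was at 20.9 CPM in wild-type replicate 1 and 7.92 to 8.58 CPM elsewhere, knockout replicate 1 included. Tbpl1 lay at 54.8 to 61.7 CPM in every library. Wild-type replicate 1 was the highest and knockout replicate 1 the next highest for the sum of the pachytene markers and for Cox6b2, Cox7b2, Cox8c and Cyct. The 12 genes of early meiotic prophase summed to 2153, 1228 and 1523 CPM across wild-type libraries, against 2149, 1572 and 1785 CPM across Ankrd31-/- libraries, the same order of the 6 libraries as for the pachytene markers. Wild-type replicate 2, the lowest library for both marker sums, came next after the replicate 1 libraries for Cox6b2 (13.3 CPM) and Cyct (11.5 CPM). Of the 10 pachytene markers, 6 passed the filter on low counts. Pgk2, Adam3, Spata16 and Acr lay at or below 0.589 CPM in every library. The part of germ cell stage in the isoform levels was not tested.

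**Figure D4:**
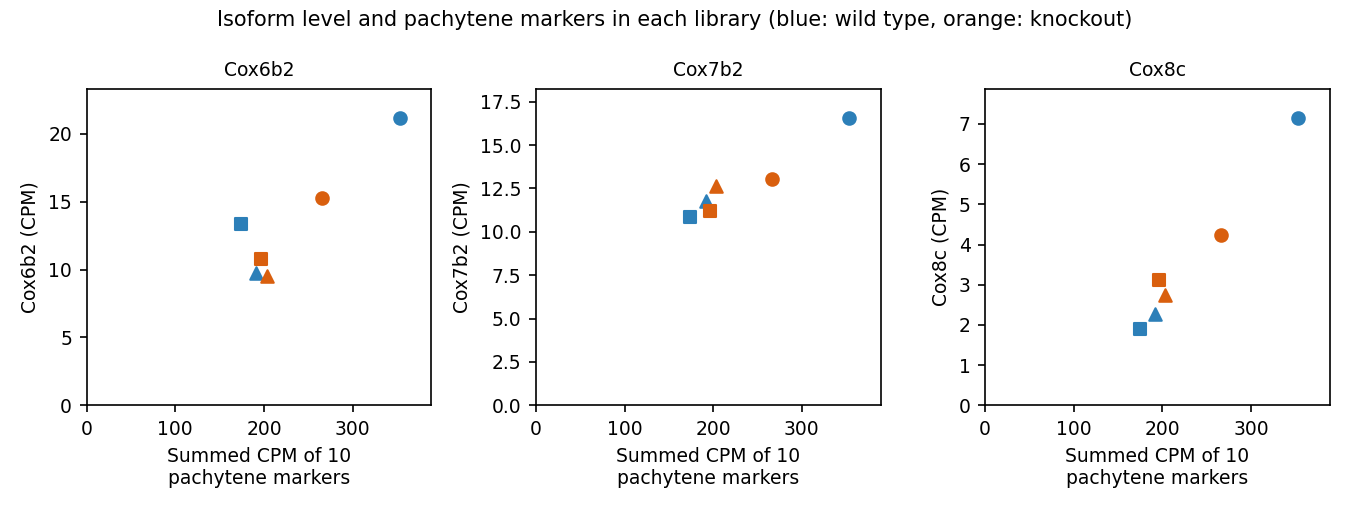
Levels in CPM of Cox6b2, Cox7b2 and Cox8c against the summed CPM of 10 pachytene markers, 1 point per library (circle, square and triangle for replicates 1, 2 and 3). Both replicate 1 libraries, at 353 and 266 CPM of markers, hold the 2 highest levels of each isoform.

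Factors that build the complexes were examined as a second layer of nuclear genes. Of the genes tested in the assembly lists, 16 for complex I, 4 for complex II, 6 for complex III, 21 for complex IV and 4 for complex V, 0 passed in edgeR and 0 had an unadjusted p under 0.05. Over all genes these shares were 0.0% and 2.07%. The complex I list holds Ndufab1, which encodes a subunit that the name rule leaves out of the members. The median log2 fold changes of the lists, in the same order, were 0.014, 0.005, -0.041, 0.019 and 0.051. Among the 2 genes with the smallest unadjusted p of each group were Coa7, a complex IV assembly gene, at 0.15 ± 0.09, Coa3 of the same group at -0.12 ± 0.10, Sdhaf4, a chaperone of Sdha, at -0.13 ± 0.09, Ndufaf2 at 0.10 ± 0.08 and Tmem126b at -0.09 ± 0.08, the last 2 for complex I. Uqcc3 of complex III had -0.09 ± 0.08 and Fmc1 of complex V 0.10 ± 0.11.

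Of 18 transcription and RNA regulators of the chain, among them Nrf1, Gabpa, Esrra and Tfam, 0 passed in edgeR (0.0% of all genes). The median log2 fold change of these regulators was -0.003. Slirp, which stabilises mitochondrial mRNA together with Lrpprc, stood at 30.8 ± 1.89 CPM in the wild type and 26.9 ± 2.76 CPM in the knockout (SD, n = 3). Its log2 fold change was -0.20 ± 0.10 (SE, edgeR unadjusted p = 0.0636, adjusted p = 1.0). With the block it was -0.20 ± 0.07 (edgeR unadjusted p = 0.0116, adjusted p = 0.551). In that fit 3.89% of all genes had an unadjusted p under 0.05 on the lower side. Pprc1, a coactivator of the PGC-1 family, had -0.08 ± 0.08 without the block. A list of other energy genes of germ cells, which also holds general ones such as Tpi1, Glud1 and Slc2a3, had 0 of 11 tested genes passing (0.0% of all genes). In this list 4 were higher and 7 lower, where 52.2% of all genes lay below 0. The lactate dehydrogenase gene Ldhc lay at 7.92, 0.704 and 0.900 CPM across wild-type libraries, against 1.69, 1.01 and 0.991 CPM across Ankrd31-/- libraries, and the glycolytic gene Tpi1 had -0.26 ± 0.11 (edgeR unadjusted p = 0.0465, adjusted p = 1.0).

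Subunits of the same complexes that are encoded in mitochondrial DNA lay on the higher side in the knockout without passing the test. All 13 had a log2 fold change above 0, with a median of 0.249, and 9 had an unadjusted p under 0.05 on the higher side in edgeR, against 0.843% of all genes, while 0 passed after adjustment. Genes that rise together in the same libraries are not independent, so these counts are no test of the set. The medians of pairs 1, 2 and 3 were 0.462, 0.099 and 0.143. The summed level was lowest in wild-type replicate 1, at 14010, 17350 and 16260 CPM across wild-type libraries, against 19230, 18810 and 18610 CPM across Ankrd31-/- libraries. Summed over the 13, they gave 1.83, 2.22 and 2.22 times the CPM of the 87 nuclear members in the wild-type and 2.48, 2.43 and 2.60 times in the knockout replicates. Every knockout library was above every wild-type library in this ratio, which was not tested and was chosen after the values were seen. The complex I gene mt-Nd4 stood at 1088 ± 116.5 CPM in the wild type and 1351 ± 54.3 in the knockout (SD, n = 3), with 0.31 ± 0.09 (SE, edgeR adjusted p = 1.0), and mt-Nd6 had 0.32 ± 0.09.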

How the data were processed

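RNA was sequenced from whole testes, and a strand-specific kit was used per the labels' protocols. The authors deposited raw read counts per gene for 6 libraries; bcl2fastq 2.19.1, GSNAP, featureCounts 1.6.0 and the build mm10 are named in the submitters' processing notes. Whether counting used strand, how multiply matched reads were handled and which annotation release served: each is not given in the sources used here. Summed exon lengths are taken per the file headers. The 92 spike-in rows (1 count in all) were left out. Symbols came from GENCODE M21, which matched 49412 of 49671 identifiers.

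Samples were grouped by the titles in the labels. Genes were tested with edgeR 4.0.16 in R 4.3.3 (filterByExpr, TMM, robust quasi-likelihood F test, two-sided) over 18040 genes, with Benjamini-Hochberg adjustment and a threshold of 0.05. The script was tested on simulated data. Without the block, edgeR recovered 58.2% of changes of 1.5 fold and 86.6% of changes of 2 fold, with 10 false calls. With the block and in DESeq2 there were 20 false calls each. The simulated counts held no pairing, so the blocked fit was not tested on paired data. Intervals are the log2 fold change and SE with the test's degrees of freedom. DESeq2 1.42.0, limma 3.58.1 (voom), other normalizations and filters, a length offset (loess span 0.5), fits without each library or pair, and a replicate block were alternatives. Deviations of same-number libraries from their group means correlated at 0.42, 0.26 and 0.28, each over the limit of 0.1, and equal numbers were therefore treated as pairs, though the labels do not say what a number marks. Isoform ratios used counts plus 0.5 per kilobase and an exact permutation test (scipy 1.17.1). Pseudogene matches came from blastn 2.17.0. Promoter letters are from RefSeq. Genes named were the testis and other tissue isoforms with their partners, X-linked members, in each complex the 3 smallest p and the highest and lowest level, and the 2 smallest p of each list; other names were chosen after their values were seen. Members, lists and markers were chosen with earlier results of these data known.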

Additional observations from a re-analysis of the deposited data

How the results depend on the processing

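The count of members called in edgeR, DESeq2 or limma was 0 in the main analysis, with the replicate block and in every other alternative run, so the pairing changed no call of a member. The median log2 fold change of the members was -0.029 and -0.027 with the replicate block. Among the other genes named, mt-Nd6 passed in the blocked fit without pair 2 (0.435, edgeR adjusted p = 0.00234). Of the values compared with the main ones, 1023 kept their direction and call, 51 changed sign, 21 medians moved by more than the SD of the pair medians and 1 newly passed; no value that changed sign had passed a test. Ldhc had no value under the filter of 1 CPM in 3 libraries. Causes of these shifts were not tested. With 1 library left out, the log2 fold change of 43 of the 49 genes named with one moved by over 1.5 times or changed sign, and 27 of these kept their sign, among them Ndufa1 (0.063 to 0.373), Atp5l (-0.306 to -0.04) and Cox4i2 (-0.269 to -0.022).

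With library totals in place of TMM the median of complex III was -0.033, Cox7a2 was -0.009 and Sdhc -0.014. With limma voom Cox8c was 0.077 and Sdhc -0.000, and with a filter of any count Cox6a1 was 0.001. In the paired fits without pair 1, Cox7a2 was -0.003, Cox7b2 0.075, Cox8c 0.498, Ldhc 0.324, Ndufb11 -0.012, Sdhc -0.015 and Sdhd 0.001. Without pair 2 the medians of complexes III and IV were 0.01 and -0.009, Cox4i1 was 0.022, Cox6b1 0.006 and Sdhc -0.017. Without pair 3 the log2 ratio difference was -0.13 for Cox7b2 over Cox7b and -0.053 for Cyct over Cycs, Cox6a1 was 0.007, Cox7a2 -0.003 and Cyct -0.043.

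Leaving out each library in turn, the median spanned -0.056 to 0.01 for all members, -0.063 to 0.013 for complex I, -0.032 to 0.026 for complex II, -0.048 to 0.028 for complex III, -0.086 to 0.028 for complex IV and -0.05 to 0.027 for complex V. The log2 ratio difference spanned -0.476 to 0.058 for Cox6b2 over Cox6b1, -0.119 to 0.333 for Cox7b2 over Cox7b and -0.11 to 0.113 for Cyct over Cycs. The log2 fold change spanned -0.54 to 0.037 for Cox6b2, -0.207 to 0.118 for Cox7b2, -0.104 to 0.153 for Cyct and -0.489 to 0.694 for Cox8c. It spanned -0.12 to 0.001 for Atp5d, -0.07 to 0.046 for Cox4i1, -0.061 to 0.07 for Cox6a1, -0.049 to 0.026 for Cox6b1, -0.059 to 0.252 for Cox7a1 and -0.029 to 0.039 for Cox7a2. It spanned -0.056 to 0.032 for Cyc1, -1.846 to 0.616 for Ldhc, -0.076 to 0.008 for Ndufa4, -0.015 to 0.108 for Ndufb11, -0.05 to 0.051 for Sdhc and -0.043 to 0.017 for Sdhd.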
